A study of Mus musculus with 69 samples.

Results

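The genes described here are 10 members of the interleukin-1 family and of the inflammasome. They are the ligands Il1a, Il1b, Il18 and Il33, the receptor antagonist Il1rn, the receptors Il1r1, Il1r2 and Il1rl1, and the inflammasome genes Nlrp3 and Casp1. They were chosen by name. Their probes were found through the transcript identifier that the array files give for each probe, which gave 15 probes. All 10 members were among the 17628 genes tested.

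Interleukin-1 signals through the receptor encoded by Il1r1 and is among the earliest cytokines released when the lung is injured or inhales particles. The inflammasome is a protein complex in which a sensor such as NLRP3 activates caspase-1, the enzyme that cleaves the precursors of IL-1 beta and IL-18 into their active forms. IL-33 is an alarmin held in the nuclei of barrier cells and released on damage, and it acts through ST2, the product of Il1rl1. Arrays measure transcripts, so cleavage and release were not measured.

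Female C57BL/6 mice, 5 to 7 weeks old on arrival and kept for 1 to 3 weeks before exposure, received a single intratracheal instillation of 18, 54 or 162 µg of titanium dioxide nanoparticles or of vehicle alone. The particles were NRCWE-001, which carries no charge, and NRCWE-002, which is positively charged. The particles were dispersed in water with 2% serum. The description of the series gives this as the vehicle, while the labels of the vehicle group give water only. Whole lungs were taken on day 1 or day 28, and each array held the RNA of 1 mouse, made from a small piece of lung, beside a commercial mouse reference RNA. There were 5 mice in each of 13 groups and 4 in the vehicle group of day 28, 69 arrays in all.

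Every value below is a log2 ratio of lung over reference RNA, and every difference is a log2 difference from the vehicle group of the same day. A gene was called when its limma p-value, adjusted by the Benjamini-Hochberg method over all 17628 genes, was below 0.05. The arrays lay on 18 slides of 3 or 4 arrays, and arrays of a slide resembled each other, with a correlation of 0.47 within slides after the groups were accounted for. Some differences are therefore also given with slide as a block, and some of Il1b and Il18 within slides. Lung identity was clear, with the mean log2 ratio of 8 alveolar type 2 cell markers between 4.71 and 4.85 in the vehicle and 162 µg groups of both days. The number of arrays limits the precision of every value.

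The members called in any of the 12 comparisons with vehicle were Il1b and Il1r2. Il1b rose about 3-fold on day 1 at 162 µg of either particle, and Il1r2, a decoy receptor, rose at 162 µg of NRCWE-001. The size of the Il1r2 rise depended on the probe and the signal used, from 1.00 on the log2 scale for the median over its probes to 1.51 for the probe measured on all arrays and 2.63 with processed signals. The table of promoters from RefSeq (GRCm38.p6) holds 16 promoters for the 10 members. The 250 bases before the start follow for both called genes, and for Il1rn, the antagonist, which was called for NRCWE-001 with slide as a block. Capitals mark matches to the motifs described after the sequences.
Il1b, chr2:129371140-129371389, minus strand: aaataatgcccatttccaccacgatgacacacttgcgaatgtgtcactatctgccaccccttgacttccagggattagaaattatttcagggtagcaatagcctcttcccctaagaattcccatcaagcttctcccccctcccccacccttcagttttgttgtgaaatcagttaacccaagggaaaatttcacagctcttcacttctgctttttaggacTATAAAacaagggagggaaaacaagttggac
Il1r2, chr1:40085843-40086092, plus strand: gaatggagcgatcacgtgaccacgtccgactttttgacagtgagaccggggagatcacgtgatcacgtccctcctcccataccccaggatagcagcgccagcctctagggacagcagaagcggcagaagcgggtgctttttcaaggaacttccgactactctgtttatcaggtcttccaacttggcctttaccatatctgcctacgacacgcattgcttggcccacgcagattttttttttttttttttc
Il1rn, the first of its 3 starts, chr2:24336610-24336859, plus strand: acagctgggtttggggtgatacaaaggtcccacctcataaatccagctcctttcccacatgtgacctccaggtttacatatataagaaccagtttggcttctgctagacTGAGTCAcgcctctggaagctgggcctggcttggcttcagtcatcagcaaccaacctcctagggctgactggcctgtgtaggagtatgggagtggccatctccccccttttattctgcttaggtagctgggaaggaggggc

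The motifs searched on both strands were GGGANTTCC for NF-kB, TGANTCA for AP-1, TTGCNNAA for C/EBP and TATAAA for the TATA box, the last added after the sequences had been seen. In the 250 bases before the start, TATAAA lay 31 bases upstream in Il1b, and AP-1 letters lay 141 bases upstream of the Il1rn start shown. The Il1r2 window held none of the 4 motifs. No member promoter of the 16 held the NF-kB letters, which 1.43% of 32851 promoters of the same length held. AP-1 letters stood in 2 of the 16, against 6.75% of all promoters, C/EBP letters in 3, against 9.56%, and TATAAA in 5, against 12.4%. A match of letters is a description and not a binding site, and these letters being absent from a window says nothing of the factor.

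Il1b encodes the precursor of IL-1 beta and was well above background on all 69 arrays. In the day 1 vehicle group the 5 log2 ratios were 1.13, 1.09, 1.36, 1.83 and 1.25. At 162 µg of NRCWE-001 they were 3.01, 2.42, 3.70, 3.78 and 1.85, and at 162 µg of NRCWE-002 they were 2.96, 3.53, 2.83, 3.68 and 2.02. All 10 lungs at this dose lay above all 5 vehicle lungs, although the lowest of the NRCWE-001 lungs exceeded the highest vehicle lung by little. The difference was 1.62 ± 0.36 (SE) for NRCWE-001, or 3.08-fold, with a 95% interval of 0.90 to 2.34 and an adjusted p of 0.0145 (limma). For NRCWE-002 it was 1.67 ± 0.36 (SE), or 3.19-fold, with an interval of 0.95 to 2.40 and an adjusted p of 0.011. In whole lung pieces, more cells of a type and more RNA of a gene per cell cannot be told apart.

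The lower doses fell between, with a wide spread between mice. The mean log2 ratio of Il1b on day 1 was 1.33 ± 0.30 (SD, n = 5) with vehicle. It was 1.63 ± 0.48, 2.34 ± 0.73 and 2.95 ± 0.83 (SD, n = 5 each) at 18, 54 and 162 µg of NRCWE-001, and 1.81 ± 0.56, 2.42 ± 0.86 and 3.01 ± 0.66 with NRCWE-002. Neighbouring doses overlapped in both series. At 54 µg, 4 of 5 lungs of each particle lay above all vehicle lungs, with differences of 1.01 ± 0.36 and 1.09 ± 0.36 (SE) that did not pass the adjusted test (adjusted p = 0.766 and 0.451, limma). With slide as a fixed block both did, at 1.34 (adjusted p = 0.0357) and 1.26 (adjusted p = 0.0491). The F test over the 3 doses called Il1b for either particle on day 1 (adjusted p = 0.0257 for NRCWE-001 and 0.0255 for NRCWE-002).

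Within slides, the Il1b difference from the vehicle array at 162 µg on day 1 was 1.32 to 2.34 on 3 slides for NRCWE-001 and 1.14 to 1.58 on 2 slides for NRCWE-002. With slide as a fixed block the differences were 1.72 (adjusted p = 0.00148) and 1.40 (adjusted p = 0.0415). The dose effect of NRCWE-002 was no longer called with that block. The call at 162 µg also depended on single mice. For NRCWE-001 it was lost without vehicle replicate 2 (adjusted p = 0.0527), without exposed replicate 3 (0.111) or without exposed replicate 4 (0.157). For NRCWE-002 it was lost without exposed replicate 2 (0.0639) or 4 (0.0775). The dose effect of NRCWE-001 called no member without vehicle replicate 1 or 2 or exposed replicate 1, 3 or 4 at 162 µg. That of NRCWE-002 called none without vehicle replicate 1, 2 or 5 or exposed replicate 1, 2, 3 or 4 at 162 µg. The difference itself stayed between 1.40 and 2.10 for the 2 particles under the other settings tried.

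**Figure D1:**
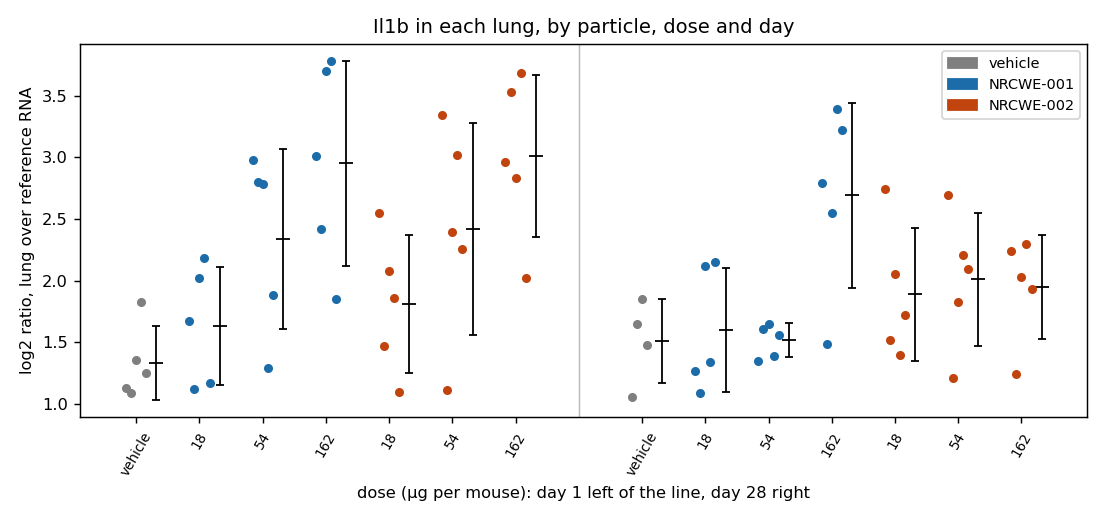
Il1b in each lung, as the log2 ratio of lung over reference RNA (vertical axis), by dose in µg per mouse, with day 1 left and day 28 right of the line. Points are mice, and the black marks are group means with SD. On day 1 the 10 lungs at 162 µg lie between 1.85 and 3.78, above the vehicle lungs at 1.09 to 1.83, and on day 28 only the NRCWE-001 group at 162 µg has a mean above 2.01.

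On day 28 the Il1b ratios of the 4 vehicle lungs were 1.06, 1.65, 1.85 and 1.48. At 162 µg of NRCWE-001 they were 2.79, 1.49, 2.55, 3.39 and 3.22, so that 4 of 5 lungs lay above all vehicle lungs and 1 lay among them. That difference of 1.18 ± 0.38 (SE) did not pass the adjusted test (adjusted p = 0.264, limma). At 162 µg of NRCWE-002 the ratios were 2.24, 1.24, 2.03, 2.30 and 1.93, a difference of 0.44 ± 0.38 (SE, adjusted p = 0.878). At 18 and 54 µg the differences ranged from 0.01 to 0.50 and were not called.

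Il1r2 encodes a receptor that binds interleukin-1 without passing on a signal. The vehicle lungs of day 1 gave log2 ratios of 0.21, 0.15, 0.05, 0.26 and 0.15. At 162 µg of NRCWE-001 the ratios were 1.18, 0.83, 1.50, 2.06 and 0.25, and at 162 µg of NRCWE-002 they were 0.91, 1.24, 0.79, 1.00 and 0.55. Of the NRCWE-001 lungs 4 lay above all vehicle lungs and the fifth lay just inside their range, while all 5 NRCWE-002 lungs lay above. The difference of the median over its 2 probes, of which 1 was not well above background in any vehicle lung of day 1, was 1.00 ± 0.23 (SE) for NRCWE-001 (adjusted p = 0.0201, limma) and 0.73 ± 0.23 (SE) for NRCWE-002 (adjusted p = 0.152). The probe measured on all arrays gave 1.51 (adjusted p = 0.0161) and 1.07 (adjusted p = 0.158). The second was called with slide as a random block (0.74, adjusted p = 0.0448) and with scan day as a block (0.91, adjusted p = 0.0262).

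The call of Il1r2 at 162 µg of NRCWE-001 held with slide as a fixed block (adjusted p = 0.00654) and was missed when the arrays of day 1 were fitted alone (adjusted p = 0.092). Leaving out any of 6 arrays ended it: exposed replicate 1 (adjusted p = 0.058), 3 (0.118) or 4 (0.301), or vehicle replicate 2 (0.0531), 3 (0.061) or 5 (0.0507). The gene has a pair of probes. The brighter was above background on all 69 arrays. On day 1 the dimmer was well above background on 4 of 5 arrays of each 162 µg group and on 0 of the 5 vehicle arrays. No fold is therefore given for it, and the median over both probes understates the brighter one. The reference RNA was above background at the brighter probe on 13 of 69 arrays. With the scanner software's own processed signals the differences of the gene were 2.63 and 2.54 (adjusted p = 0.0335 and 0.0452).

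At 54 µg on day 1 the Il1r2 ratios were 1.01, 0.87, 1.15, 0.12 and 0.09 with NRCWE-001 and 1.14, 0.12, 0.63, 1.29 and 0.30 with NRCWE-002. In each group some lungs matched the vehicle lungs and others stood well above them. At 18 µg of NRCWE-001 a single lung, replicate 2, reached 2.21 while the others lay between 0.09 and 0.55. The dose effect of NRCWE-001 on Il1r2 was not called with that lung (adjusted p = 0.0874) and was without it (adjusted p = 0.00428). By day 28 the Il1r2 ratios of all exposed groups lay between 0.11 and 0.80, against 0.15 to 0.23 with vehicle. The largest difference, at 162 µg of NRCWE-001, was 0.27 ± 0.25 (SE, adjusted p = 0.86).

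Il1rn encodes the antagonist that occupies the interleukin-1 receptor without signalling. The vehicle ratios on day 1 were -0.07, 0.14, 0.19, 0.13 and -0.06. They were 0.43, 0.47, 0.73, 1.11 and -0.03 at 162 µg of NRCWE-001 and 0.54, 0.65, 0.61, 0.70 and 0.19 at 162 µg of NRCWE-002, so 4 of 5 lungs of each particle lay above all vehicle lungs. The differences of 0.48 ± 0.16 and 0.47 ± 0.16 (SE) did not pass the adjusted test (adjusted p = 0.264 and 0.216, limma). With slide as a fixed block the NRCWE-001 difference was called (0.53, adjusted p = 0.0452). The median over probes joined a bright probe that differed by 0.93 and 0.86 with a dim one that differed by 0.03 and 0.09 and was above background on 16 of 69 arrays. The bright probe alone was not called either (adjusted p = 0.171 and 0.208).

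Il33 was measured on all arrays by a single probe. At 162 µg on day 1 the ratios were 2.29, 1.98, 2.74, 2.90 and 1.77 with NRCWE-001 and 2.68, 2.50, 2.45, 3.19 and 1.97 with NRCWE-002, against 1.67, 1.69, 1.77, 1.68 and 2.03 with vehicle. The exposed and vehicle ranges overlapped for both particles. The differences were 0.57 ± 0.25 (SE, adjusted p = 0.566, limma) and 0.79 ± 0.25 (SE, adjusted p = 0.16). For NRCWE-002 the difference was called when the arrays of day 1 were fitted alone (adjusted p = 0.0208) and in the lung channel without the reference (0.85, adjusted p = 0.0399). On day 28 the NRCWE-001 lungs at 162 µg fell into 3 high values, 2.35, 3.12 and 3.28, and 2 at 1.75 and 1.78, beside vehicle ratios of 1.75, 1.22, 2.00 and 1.61.

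Il18, the other cytokine that caspase-1 activates, was not called in any comparison with vehicle. Its day 1 differences were 0.29 and 0.04 at 18 and 54 µg of NRCWE-001, -0.20 at 18 µg of NRCWE-002, and below 0 in the remaining groups. The day 1 ratios were 1.25, 1.38, 1.31, 1.34 and 0.62 with vehicle, 0.47, 0.80, 0.66, 0.49 and 1.14 at 162 µg of NRCWE-001, and 0.79, 0.53, 0.76, 0.57 and 1.11 at 162 µg of NRCWE-002. The ranges overlapped because of vehicle replicate 5. The differences were -0.47 ± 0.21 and -0.43 ± 0.21 (SE, adjusted p = 0.589 and 0.548, limma), and at 54 µg of NRCWE-002 the difference was -0.61 ± 0.21 (adjusted p = 0.506). Within slides, the 162 µg difference was -0.78 to -0.58 on 3 slides for NRCWE-001, and -0.54 and 0.13 on 2 slides for NRCWE-002. The F test over the doses of NRCWE-001 on day 1 did not call Il18 without a block (adjusted p = 0.275). It called Il18 with slide as a fixed block (0.0106) or a random block (0.0066), and with scan day as a fixed block (0.013). Markers of heart muscle, which a lung piece can carry, varied between mice, with list means over 8 genes of 0.35 to 2.84 in the day 1 vehicle lungs, 0.17 to 3.22 at 162 µg of NRCWE-001 and 0.68 to 2.18 at 162 µg of NRCWE-002. On day 28 Il18 was 1.15, 0.13, 1.06, 0.31 and 0.66 at 162 µg of NRCWE-002, against 1.09 to 1.30 with vehicle, a difference of -0.51 ± 0.22 (SE, adjusted p = 0.668). Within slides it was -0.11 and 0.04 on 2 slides. The heart muscle means of that group were 1.95 to 3.52, against 0.38 to 2.56 with vehicle. Over the 69 arrays, with each slide's mean removed, Il18 and the heart muscle list correlated at r = -0.502, and the part of those cells in the Il18 values was not tested.

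Il1a, which encodes IL-1 alpha, was close to the limit of the arrays. Its 2 probes were well above background on 10 and 16 of 69 arrays, and its group means lay between 0.03 and 0.15. Its differences ranged from -0.03 to 0.06, with standard errors of 0.05, and a change of Il1a below this limit could not be seen. None of its differences from vehicle passed the test at an unadjusted p below 0.05.

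**Figure D2:**
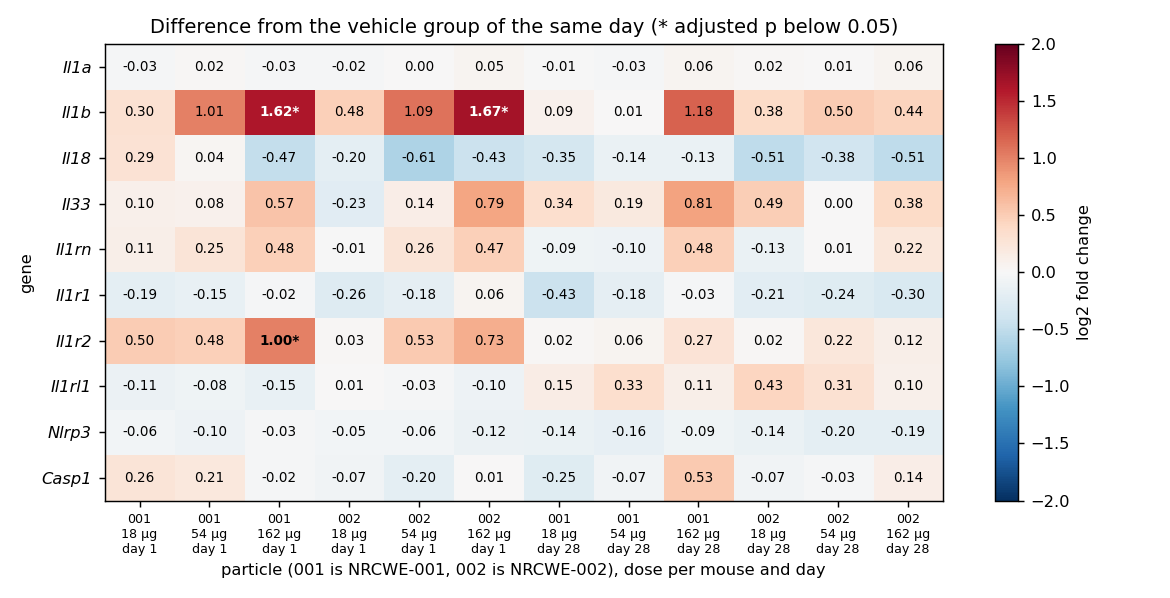
Log2 differences of the 10 members (rows) from the vehicle group of the same day, for each particle, dose per mouse and day (columns), with colour from blue (lower) to red (higher). Bold values with a star are the 3 that passed the adjusted test: Il1b at 1.62 and 1.67, and Il1r2 at 1.00.

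The signalling receptor Il1r1 differed by -0.02 ± 0.18 and 0.06 ± 0.18 (SE) at 162 µg of NRCWE-001 and NRCWE-002 on day 1. All 10 exposed lungs lay between the lowest and the highest vehicle lung, 0.40 and 1.02. On day 28 the lowest ratio, -0.22, belonged to a lung of the 162 µg group of NRCWE-002, whose other 4 lungs lay between 0.57 and 0.87. That group's difference was -0.30 ± 0.19 (SE, adjusted p = 0.803, limma).

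Il1rl1 was far below the reference RNA, at a mean log2 ratio of -3.22 ± 0.21 (SD, n = 5) with vehicle on day 1. Its differences at 162 µg were between -0.15 and 0.11 on the 2 days. Its 3 probes did not move together: at 162 µg of NRCWE-002 on day 28 they differed by 0.75, -0.04 and 0.10. The second value came from a probe that was above background in the lung channel on 18 of 69 arrays. By its identifier, the probe that gave 0.10 targets another transcript of the gene than the other probes do. The probe with the highest signal, taken alone, gave a difference between the particles on day 28 of 0.54, higher with NRCWE-002 (adjusted p = 0.0208), where the median over probes gave 0.08 (adjusted p = 0.686).

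Nlrp3, the sensor, had ratios of 0.17, 0.04, 0.00, 0.06 and -0.03 at 162 µg of NRCWE-001 on day 1 and 0.07, -0.07, 0.11, -0.03 and -0.31 at 162 µg of NRCWE-002. The vehicle ratios were 0.04, 0.10, 0.04, 0.02 and 0.17, and the differences were -0.03 ± 0.07 and -0.12 ± 0.07 (SE, adjusted p = 0.999 and 0.65, limma). On day 28 the ratios at 162 µg of NRCWE-002 were -0.16, -0.08, 0.05, 0.03 and -0.02, against 0.19, 0.28, 0.05 and 0.10 with vehicle. All 5 lay below the lowest vehicle lung, the highest of them by less than the rounding shows, with a difference of -0.19 ± 0.07 (SE) that was not called (adjusted p = 0.626). At 54 µg of NRCWE-002 the ratios were -0.02, -0.16, 0.05, -0.13 and 0.04, again at or below the lowest vehicle value as rounded, with a difference of -0.20 ± 0.07 (SE, adjusted p = 0.97). The single Nlrp3 probe was well above background in the lung channel on 65 of 69 arrays, and on 3 of the 4 vehicle arrays of day 28. In the reference channel it was so on 56 of 69. Under the settings tried, the difference at 162 µg of NRCWE-002 on day 28 ranged from -0.67 to 0.02.

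Casp1 encodes caspase-1. On day 1 it differed by -0.02 ± 0.20 and 0.01 ± 0.20 (SE) at 162 µg of NRCWE-001 and NRCWE-002. On day 28 the lungs at 162 µg of NRCWE-001 split, with ratios of 0.25, -0.96, -0.71, 0.42 and 0.14, against -0.67, -0.35, -0.90 and -0.86 with vehicle. The 3 high lungs stood above all vehicle lungs and the other 2 did not. The difference was 0.53 ± 0.21 (SE, adjusted p = 0.418, limma).

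In that day 28 group the 3 high lungs were the same mice for several members. Replicates 1, 4 and 5 had the highest Casp1, Il1b, Il33, Il1rn and Il1r2 ratios of the 5 lungs. Il1rn was 0.67, 1.03 and 1.02 in them and 0.13 and 0.00 in the other pair. The mean log2 ratio of 11 monocyte and macrophage markers was 2.49, 2.47 and 2.36 in the 3 and 1.56 and 1.85 in the other pair, against 1.70 to 1.86 with vehicle. Of other cell types, 0 of 8 endothelial and 1 of 10 lymphocyte markers were higher in this group than with vehicle, and none was called. Their median differences were -0.37 and -0.09. Such counts were not particular to this group: at 18 µg of NRCWE-001 on day 28 they were 0 of 8 and 0 of 10. Over the 69 arrays, with slide means removed, Casp1 correlated at r = 0.389 with the macrophage list, -0.631 with the endothelial list and 0.612 with the lymphocyte list. The part of any of these cells in these values was not tested. No member was called over the doses of NRCWE-001 on day 28. Without replicate 2 of this group the F test called Il1b, Il1rn and Casp1, and without replicate 3 it called Il1rn and Casp1.

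**Figure D3:**
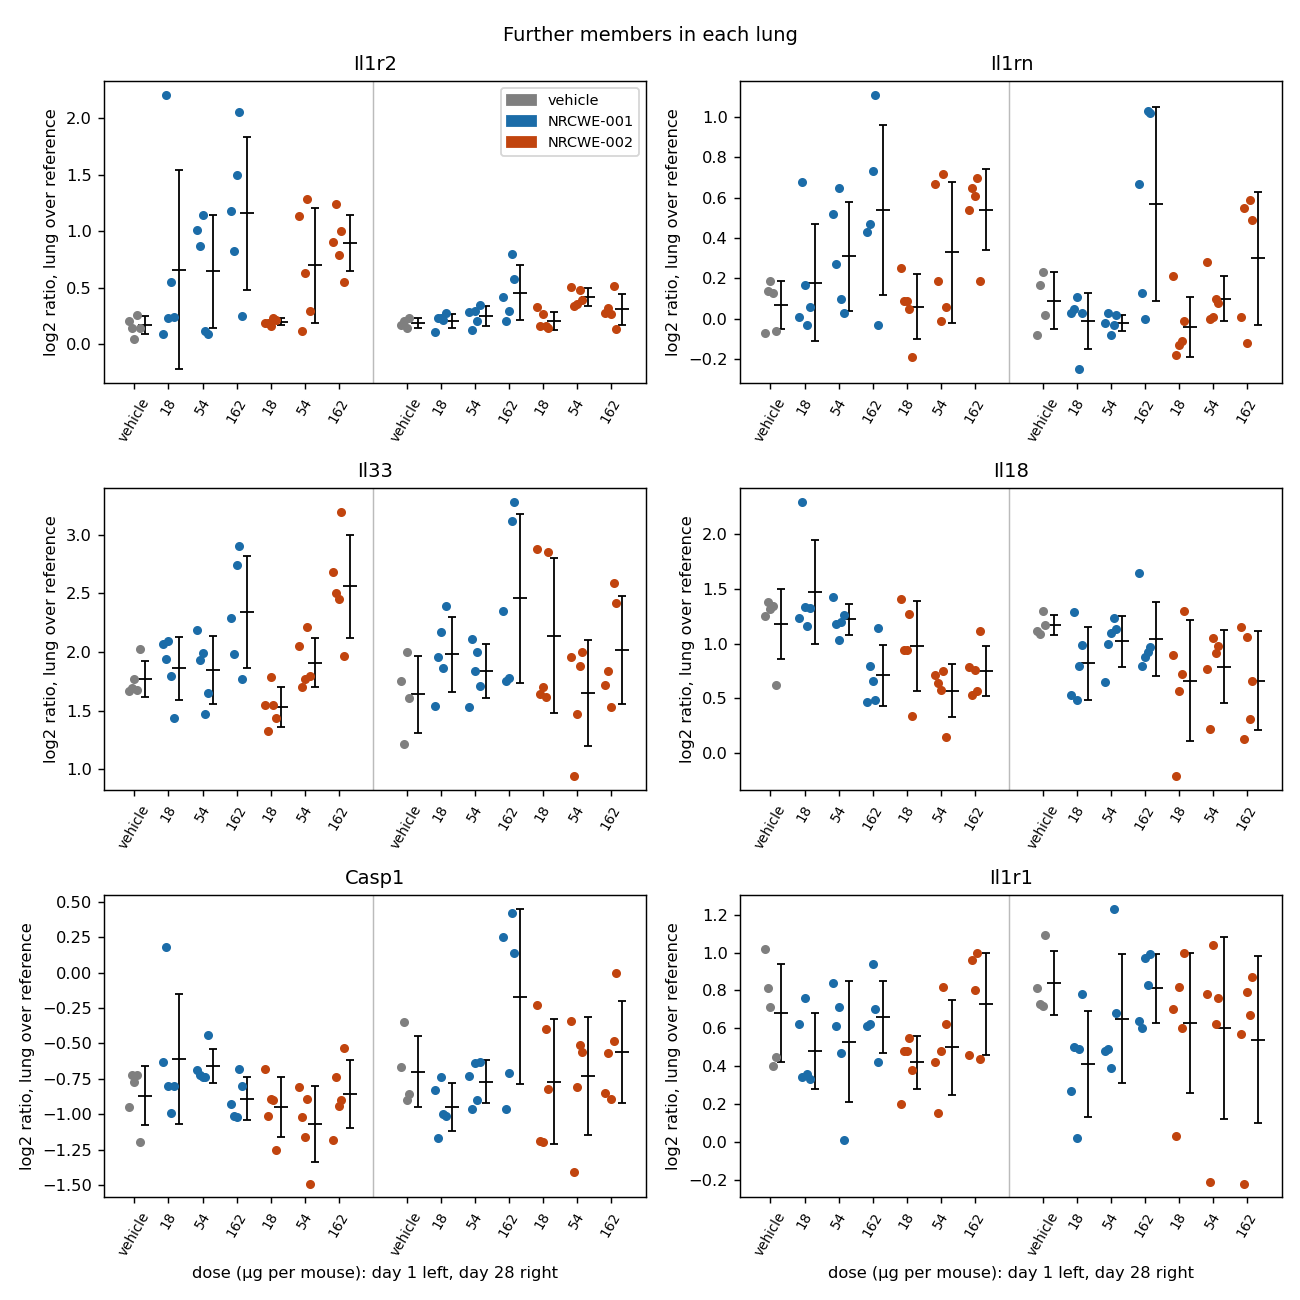
Il1r2, Il1rn, Il33, Il18, Casp1 and Il1r1 in each lung, as log2 ratios of lung over reference RNA, by dose in µg per mouse, with day 1 left and day 28 right of the line; points are mice and black marks are group means with SD. Il1r2 reaches 2.06 at 162 µg of NRCWE-001 on day 1 and stays at or below 0.80 on day 28, and Casp1 separates into 3 high and 2 low lungs at 162 µg of NRCWE-001 on day 28.

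Counted over all members, calls were few and so were calls among all genes. On day 1 at 162 µg, 2 of 10 members were called for NRCWE-001, where 0.579% of all genes were called, and 1 of 10 for NRCWE-002, where 0.596% were. The median difference of the members was -0.02 and 0.05 in these comparisons, and that of all genes 0.01 in both. No member was called at 18 or 54 µg on day 1, with 0% of all genes called at 18 and 54 µg of NRCWE-001, 0% at 18 µg of NRCWE-002 and 0.0624% at 54 µg of NRCWE-002. At an unadjusted p below 0.05 (limma) the members numbered 1, 2, 0 and 3 in that order, beside 866, 802, 523 and 1028 of all 17628 genes. On day 28 no member was called, and the share of all genes called was 0.193%, 0% and 0.0454% at 18, 54 and 162 µg of NRCWE-001 and 0%, 0% and 0.00567% for NRCWE-002. At an unadjusted p below 0.05 (limma) the day 28 members numbered 2, 1 and 4 for NRCWE-001 and 2, 1 and 2 for NRCWE-002. All genes at that threshold numbered 1439, 511 and 1521 for NRCWE-001 and 1071, 874 and 1183 for NRCWE-002.

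The F test over the doses called 1 of 10 members, Il1b, for each particle on day 1, with 0.698% of all genes called for NRCWE-001 and 0.823% for NRCWE-002. It gave 4 and 5 members at an unadjusted p below 0.05 (limma), beside 1388 and 1374 of all genes. On day 28 it called none, with 0.477% and 0% of all genes called and 4 and 1 members at an unadjusted p below 0.05 (limma), beside 1591 and 767 of all genes. Exposed and vehicle lungs did not overlap for 1 member at 162 µg of NRCWE-001 on day 1, Il1b (3.4% of all genes), and for 2 members at 162 µg of NRCWE-002, Il1b and Il1r2 (4.9%). On day 28 this held for no member with NRCWE-001 (2.25% of all genes) and for Nlrp3, lower, with NRCWE-002 (1.07%). The 3 comparisons of each particle share the vehicle lungs of their day.

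The uncharged and the positively charged particle were compared at matched dose and day. Over the 3 doses no member was called on day 1, where 0.125% of all genes were, or on day 28, where 4.75% were (limma), and at an unadjusted p below 0.05 there were 2 members on day 1, Il18 and Casp1, and 1 on day 28, Il18, each lower with NRCWE-002, beside 1290 and 3917 of all genes. On day 28 the adjusted test called 837 of all genes without a block, 4 with slide as a fixed block and 4513 with median centring. On most slides with exposed day 28 arrays, those arrays were of 1 particle only, though some of these slides also held day 1 arrays of the other particle. The cause of these changes in the count was not tested. At 162 µg on day 1 the difference, NRCWE-002 minus NRCWE-001, was 0.05 for Il1b with a 95% interval of -0.67 to 0.78, and -0.27 for Il1r2 with an interval of -0.73 to 0.20. On day 28 it was -0.74 for Il1b, with an interval of -1.46 to -0.02 and an adjusted p of 0.588. Any difference within these intervals remains possible, so the particles were not shown to act alike. Il18 at 54 µg on day 1 was lower in all 5 NRCWE-002 lungs, 0.15 to 0.75, than in all 5 NRCWE-001 lungs, 1.03 to 1.42, and the difference of -0.65 ± 0.21 (SE) was not called (adjusted p = 0.408).

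**Figure D4:**
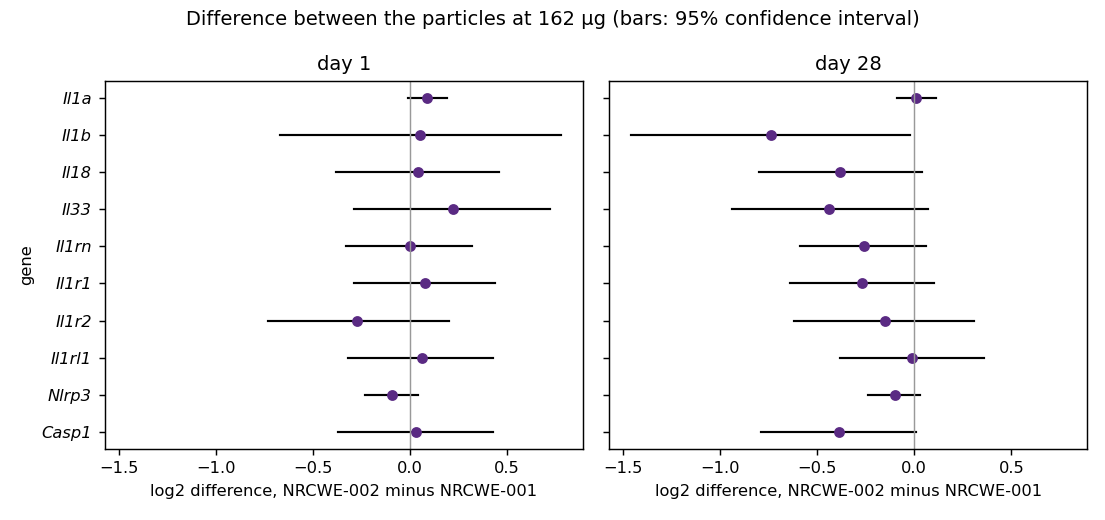
Log2 difference between the particles at 162 µg, NRCWE-002 minus NRCWE-001, for each member on day 1 and day 28; points are estimates and bars 95% confidence intervals. On day 1 every interval spans 0, and on day 28 the Il1b interval, from -1.46 to -0.02, is the only one that does not.

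Between the days, the difference from vehicle at 162 µg was compared as an interaction. For Il1b the day 28 difference was lower than the day 1 difference by -0.44 ± 0.53 (SE) with NRCWE-001 and by -1.24 ± 0.53 with NRCWE-002, and neither was called (adjusted p = 1 and 0.664, limma). For Il1r2 the values were -0.73 ± 0.34 and -0.62 ± 0.34 (SE). No member was called in either, where 0% of all genes were called for both particles, and 1 member passed an unadjusted p below 0.05 in each, beside 766 and 1181 of all genes.

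Other genes of the pathway were taken from 4 lists. Of 4 further family ligands, 6 further receptors and binding proteins, 14 further inflammasome genes and 11 genes of interleukin-1 receptor signalling, 1 gene was called in any comparison with vehicle. This was Nfkbia, which encodes an inhibitor of NF-kB that is itself induced by NF-kB. Its mean log2 ratio was 0.70 ± 0.16 (SD, n = 5) with vehicle and 1.40 ± 0.30 at 162 µg of NRCWE-002 on day 1, a difference of 0.70 ± 0.18 (SE, adjusted p = 0.0365, limma). At 54 µg of NRCWE-002 its mean was 1.46 ± 0.30 (SD), with an adjusted p of 0.0556, and at 162 µg of NRCWE-001 it was 1.17 ± 0.11 (SD), with an adjusted p of 0.341.

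The gene of each other list with the largest difference at 162 µg on day 1 was not called. Mefv encodes pyrin, an inflammasome sensor of myeloid cells, and differed by 0.96 ± 0.25 (SE) with NRCWE-001 (adjusted p = 0.0593, limma). Il18bp encodes a secreted protein that neutralises IL-18 and differed by 0.59 ± 0.18 with NRCWE-002 (adjusted p = 0.143). Il1f5, listed with the ligands and now named Il36rn, encodes a receptor antagonist and differed by 0.45 ± 0.36 with NRCWE-001 (adjusted p = 0.989). Of the 5 exposed lungs, 1 lay above all vehicle lungs for Il1f5 and 1 below all of them. The median difference of the 11 signalling genes was 0.08 for either particle, against 0.01 for all genes, and that of the 14 inflammasome genes was -0.01 and 0.01.

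The genes whose log2 ratio followed Il1b most closely over the 69 arrays, with each slide's mean removed, were Trem1, a receptor of neutrophils and monocytes (Pearson r = 0.898), Ch25h, a cholesterol hydroxylase (0.854), and Mefv (0.842). For Il1r2 they were Hcar2, a receptor for nicotinic acid (0.859), Mt2, a metallothionein (0.859), and Asprv1, a protease gene (0.849). The arrays share doses and days, so these values describe and do not test. Among members, Il1b correlated with Il1rn at 0.711, with Il33 at 0.653 and with Il1r2 at 0.626.

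Markers of neutrophils and of monocytes and macrophages moved in part with these genes. The mean log2 ratio of 11 neutrophil markers was 1.38 ± 0.19 (SD, range 1.17 to 1.66) with vehicle on day 1. It was 1.94 ± 0.50 (1.29 to 2.50) at 162 µg of NRCWE-001 and 1.87 ± 0.23 (1.51 to 2.11) with NRCWE-002, with 9 of 11 markers higher in each. Of them Cxcr2 (0.69 ± 0.16 SE, adjusted p = 0.0201, limma) and Csf3r (0.80 ± 0.19, adjusted p = 0.0272) were called for NRCWE-001 and none for NRCWE-002. Over the 69 arrays, with slide means removed, the neutrophil list correlated with Il1b at r = 0.737, with Il1r2 at r = 0.671 and with Il33 at 0.25. The macrophage list correlated with Il1b at 0.579, with Il1r2 at 0.248 and with Il33 at 0.708. Il33 also correlated at -0.599 with the endothelial list and at -0.468 with a list of airway and alveolar type 1 epithelium.

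Of 11 monocyte and macrophage markers, 7 were higher at 162 µg of NRCWE-001 on day 1 and 8 with NRCWE-002, with median differences of 0.18 and 0.36. Of them only Cd14 was called, for both particles, with differences of 1.33 ± 0.34 and 1.58 ± 0.34 (SE, adjusted p = 0.0489 and 0.011, limma). The list mean was 1.80 ± 0.12 (SD) with vehicle, 1.96 ± 0.13 with NRCWE-001 and 2.13 ± 0.07 with NRCWE-002. The part of any of these cell types in the Il1b, Il1r2 and Il33 values was not tested.

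**Figure D5:**
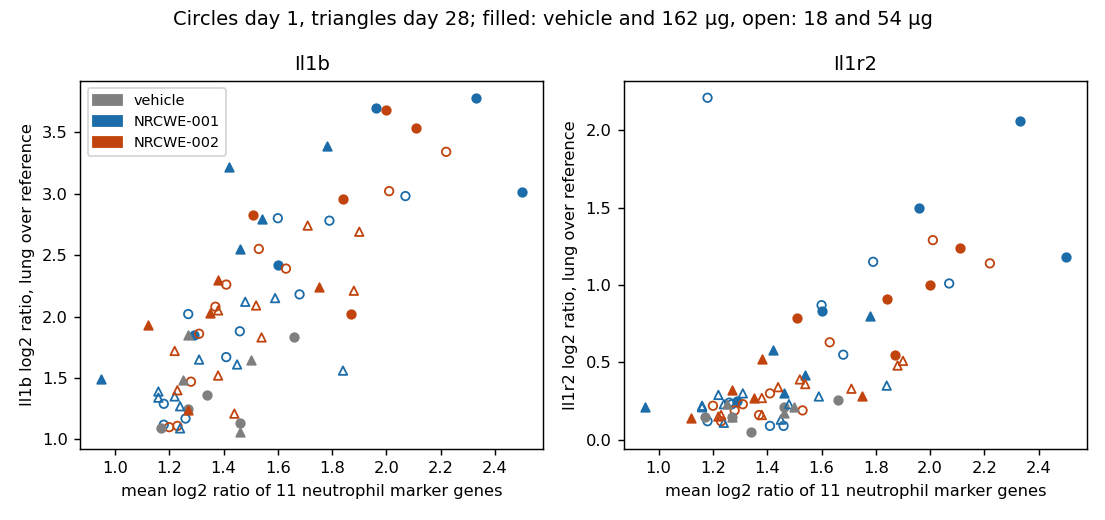
Il1b and Il1r2 (vertical axes, log2 ratio of lung over reference RNA) against the mean log2 ratio of 11 neutrophil marker genes in the same lung, for 69 arrays; circles are day 1, triangles day 28, and filled marks are vehicle and 162 µg. Both genes are higher where the markers are higher (r = 0.737 and 0.671 with slide means removed), except for the Il1r2 value of 2.21 in a lung at 18 µg of NRCWE-001.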

How the data were processed

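The scanner files deposited by the authors hold red (Cy5, lung) and green (Cy3, Universal Mouse Reference RNA) intensity values from Agilent Feature Extraction, with no dye swap. The authors also deposited a table of normalised log2 ratios. The median spot signals were background-corrected (normexp, offset 50), normalised by loess within each array with limma 3.58.1 in R 4.3.3, and control and outlier-flagged spots were left out. Repeated spots were summarised by their median, probes well above background in the lung channel on at least 4 of 69 arrays were kept (36452 of 41174), and probes of a gene were summarised by their median. The authors' log2 ratios, which the rule for these genes names, correlated with these values at 0.987 to 0.995 per array and served as an alternative. One limma fit of 14 group means gave every contrast, and p-values were adjusted over 17628 genes. The test was checked on simulated data. Probes were named through their transcript identifiers in the RefSeq table, and promoters are from RefSeq (GRCm38.p6).

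The members, the pathway and marker lists and the tests were chosen with earlier results of these data known. Named are all members, pathway genes called against vehicle, the gene of each pathway list with the largest difference at 162 µg on day 1, and the 3 genes most correlated with each called member. Replicate numbers only name the mice. Genes of the lists that were not measured by a kept probe were not analysed here. Alternatives were the authors' table, 3 other signal treatments, 2 filters, the brightest probe, blocks for slide and scan day, the arrays of 1 day alone, each array left out and, chosen after seeing the data, the lung channel alone.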

Additional observations from a re-analysis of the deposited data

Results flagged for a closer look

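Within groups, a lung was marked as standing apart when its gap to the nearest other lung exceeded Dixon's 95% critical share of the group's range. Of 140 member and group sets, 10 were marked, and chance marks about 1 in 20. A lung at 18 µg of NRCWE-001 on day 1 (replicate 2) was marked 3 times: Il1r2 was 2.21 against 0.09 to 0.55 in the others (gap share 0.785), Il18 was 2.29 against 1.16 to 1.33 (0.848), and Il1rn was 0.68 against -0.03 to 0.17 (0.724). Its neutrophil list mean was 1.18, the lowest of its group's 1.18 to 1.68. Vehicle replicate 5 of day 1 was marked for low Il18 (0.62, share 0.832) and high Il33 (2.03, share 0.728). Replicate 5 at 54 µg of NRCWE-002 on day 1, on the same slide, was marked for low Il18 (0.15, share 0.724). The remaining marks were Il1rn in replicate 4 at 18 µg of NRCWE-001 on day 28 (-0.25, share 0.766), Il1r1 in replicate 2 at 162 µg of NRCWE-002 on day 28 (-0.22, share 0.725), Il18 in replicate 1 at 162 µg of NRCWE-001 on day 28 (1.64, share 0.794) and Casp1 in replicate 5 at 54 µg of NRCWE-001 on day 1 (-0.44, share 0.828).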

How the results depend on the processing

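Apart from the fits that left out an array, Il1b was called at 162 µg on day 1 for both particles under all 13 settings, and Il1r2 for NRCWE-001 under 12 of them, all but the fit of day 1 alone. No called difference changed sign. No paired analysis was possible because replicate numbers follow accession order and the labels pair no animals. With slide as a fixed block, 1 member (Il1b) was called at 54 µg of either particle on day 1, 3 by the dose effect of NRCWE-001 on day 1 and 0 by that of NRCWE-002. When slide entered as a random effect, the counts were 1 and 1 at 54 µg, 2 at 162 µg of NRCWE-002, and 3 by the dose effect of NRCWE-001 on day 1 and 3 on day 28 (Il1b, Il1rn and Casp1). Scan day as a block gave 2 at 162 µg of NRCWE-002, and 3 and 1 by the dose effect of NRCWE-001 on days 1 and 28. The arrays of day 1 alone gave 1 at 162 µg of NRCWE-001, 2 at 162 µg of NRCWE-002, and 0 and 2 by the dose effects of NRCWE-001 and NRCWE-002. Processed signals gave 2 at 162 µg of NRCWE-002 and 0 and 2 by these dose effects. The lung channel alone gave 2 at 162 µg of NRCWE-002, 2 and 3 by the dose effects, and 1 (Il1rl1) between the particles on day 28. Median centring gave 2 (Il33 and Il18, both lower with NRCWE-002) and the brightest probe 1 (Il1rl1) in that comparison. The authors' log2 ratios gave 2 by the dose effect of NRCWE-001 on day 1, as did no background correction. Leaving out 1 array at a time gave 0 to 3 members at 162 µg of NRCWE-001 and 0 to 1 at 162 µg of NRCWE-002 on day 1, 0 to 2 by the dose effect of either particle on day 1 and 0 to 3 by that of NRCWE-001 on day 28, and 0 in the other comparisons. All-gene counts at 162 µg on day 1 ranged from 37 to 772 for NRCWE-001 (102 as reported) and 42 to 787 for NRCWE-002 (105), lowest with median centring and highest with a block for slide or scan day. Between the particles on day 28 they ranged from 4 with slide as a fixed block to 4513 with median centring (837 as reported). The causes were not tested. Il1a and the dimmer probes of Il1rn, Il1r2 and Il1rl1 lie near background, where changes are compressed, and the Nlrp3 probe was not well above background on every array.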
